A study of Mus musculus with 7 samples.

Results

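The cytokines and receptors that signal through gp130 were examined in cortical bone. The set held 10 of the 27179 genes in the count files, taken by gene symbol alone. They were the shared receptor subunit gp130 (Il6st), the partner or ligand-binding receptors Lifr, Osmr, Il6ra and Il11ra1, the cytokines Lif, Osm, Il6 and Ctf1, and the feedback inhibitor Socs3. RNA was sequenced from the femora of 12-week-old female C57BL/6 mice after the bone ends and marrow had been removed. Both genotypes carried Dmp1Cre, a transgene in which the Dmp1 promoter drives Cre recombinase in late osteoblasts and osteocytes. The 3 Dmp1Cre.EfnB2f/f-labelled libraries came from mice that also had both alleles of the ephrinB2 gene floxed, and the 4 Dmp1Cre libraries came from littermates or cousins without the floxed allele. The comparison asks how loss of ephrinB2 from these cells changes RNA levels in the whole bone piece.

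Cytokines of the IL-6 family bind receptors at the cell surface that pair with gp130. IL-6 and IL-11 first bind their own receptors, Il6ra and Il11ra1, while leukemia inhibitory factor (Lif) and cardiotrophin-1 (Ctf1) bring Lifr and gp130 together and oncostatin M (Osm) brings Osmr and gp130 together. In mice, oncostatin M can also act through Lifr. The paired receptors activate JAK kinases and STAT3, and STAT3 induces Socs3, which binds gp130 and dampens the signal. In bone, the pathway is known for acting on osteoblasts and osteocytes, which respond by changing bone formation and by making RANKL, the cytokine that drives osteoclast formation.

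Promoter sequence is shown for the genes at the ends of the range of levels and for the feedback inhibitor. It was taken from RefSeq on GRCm38.p6, which held an entry for 9 of the 10 genes, Osm being the exception. All windows covered the 250 bases before an annotated start and were searched on both strands, using the first listed start of genes with several. A STAT site of the form TTCNNNGAA was present in the window of 1 of the 9 genes, Socs3, and in 7.18% of 27025 mouse promoter windows of the same length. The Socs3 stretch covers bases -164 to -136 relative to its annotated start (chr11:117969502-117969530, minus strand) and has the STAT match, which begins at base -154, in capitals. This start is not the end of the gene span given below, so the stretch lies inside that span. The windows used for Lifr and Osmr also lie inside their gene spans, and that of Ctf1 reaches into its span. The Il6st stretch covers the 100 bases before the start (chr13:112463970-112464069, plus strand) and has a GC box, GGGCGG read on the other strand, in capitals. The Il6 stretch covers the 100 bases before its start (chr5:30013014-30013113, plus strand) and holds no match to either motif, so it has no capitals.
Socs3: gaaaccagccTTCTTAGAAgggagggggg
Il6st: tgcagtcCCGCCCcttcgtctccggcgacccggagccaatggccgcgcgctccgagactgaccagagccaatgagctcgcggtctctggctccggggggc
Il6: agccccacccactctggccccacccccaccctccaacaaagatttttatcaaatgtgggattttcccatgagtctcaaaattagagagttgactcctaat
GC boxes stood in the windows of 4 of the 9 genes (Il6st, Lifr, Osmr and Socs3) and in 32.9% of all windows. The sequence TATAAA was in 0 of the 9 and in 13.0% of all windows. The GC content of the window was 66.0% for Il6st, 71.6% for Socs3 and 42.8% for Il6. These are matches of letters and say nothing of whether a factor was bound in this bone.

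Library totals ranged from 17245556 to 22075778 counts. Libraries of the same genotype differed beyond counting error in every pair (chi-square over its degrees of freedom from 28.9 to 225). Controls 1 and 4 stood apart on the first principal component, with scores of 43.9 and 68.7 against -41.4 to -1.77 in the other 5 libraries. The targeted gene, Efnb2, had 322, 239 and 224 counts in the Dmp1Cre.EfnB2f/f-labelled libraries and 164, 139, 110 and 117 in the controls, so its level went against the labels. The log2 fold change was 0.96 (SE 0.21, edgeR adjusted p = 0.510), lay between 0.76 and 1.08 under all 17 alternatives, and passed the threshold by DESeq2 (adjusted p = 0.0333) and by the limma pipeline (adjusted p = 0.0161). The counts cover the whole gene and cannot separate the floxed part from the rest. In sorted cells of floxed mice with Dmp1Cre, the paper reports by PCR that Efnb2 was effectively targeted in osteocytes, while other cells kept it. The RNA here came from whole bone pieces. The part of cells other than osteocytes in the Efnb2 counts was not tested. Whether labels were exchanged, which would turn the sign of every fold change given here, was not tested, and the genotype is therefore given throughout as the label of the library. The osteocyte genes Dmp1, Mepe, Sost and Phex were detected in all 7 libraries, at uneven levels (Sost from 25.8 to 166 CPM). The summed level of 10 osteoblast and osteocyte markers was 8616 to 14318 CPM under the label Dmp1Cre.EfnB2f/f and 8437 to 41723 CPM in the controls. It was highest in control 1 (41723 CPM, of which Col1a1 was 38784 CPM) and control 4 (20473 CPM). Of markers of other tissues, 0 of 7 erythroid and 0 of 7 skeletal muscle genes passed edgeR's adjusted threshold, as did 0.00% of all genes. At an unadjusted p under 0.05 there were 4 of 7 and 3 of 7, against 9.67% of all genes. The log2 fold change was below 0 for all 7 erythroid markers and above 0 for all 7 skeletal muscle markers. The summed level of the erythroid markers was 4922 to 10836 CPM under the label Dmp1Cre.EfnB2f/f and 12481 to 32710 CPM in the controls, and that of the skeletal muscle markers was 23742 to 39206 CPM and 11227 to 25864 CPM, with overlap. Their part in the values of the set was not tested. The labels name separate samples and parent crosses but not separate animals, so p-values measure the spread between these samples.

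By mean level over the 7 libraries the receptors stood above the cytokines, except that Osm lay above Osmr. Levels between genes were compared as RPKM, which divides a normalized count by the gene's length in the count files. Il6st was the highest at 58.5 ± 12.7 RPKM (SD, n = 7), and 7.04% of the 15085 genes tested had a higher mean. Lifr followed at 39.3 ± 13.9 RPKM, with 11.8% of genes above it. Il6ra reached 17.3 ± 2.05 RPKM and Il11ra1 8.81 ± 1.93 RPKM, the latter close to the median of all tested genes, 9.08 RPKM. Osm (7.05 ± 2.24 RPKM), Socs3 (6.35 ± 2.17 RPKM) and Osmr (5.67 ± 1.64 RPKM) lay just below that median. Ctf1 (0.881 ± 0.201 RPKM), Lif (0.572 ± 0.289 RPKM) and Il6 (0.228 ± 0.118 RPKM) were the lowest, and 98.6% of tested genes had a higher mean than Il6.

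**Figure D1:**
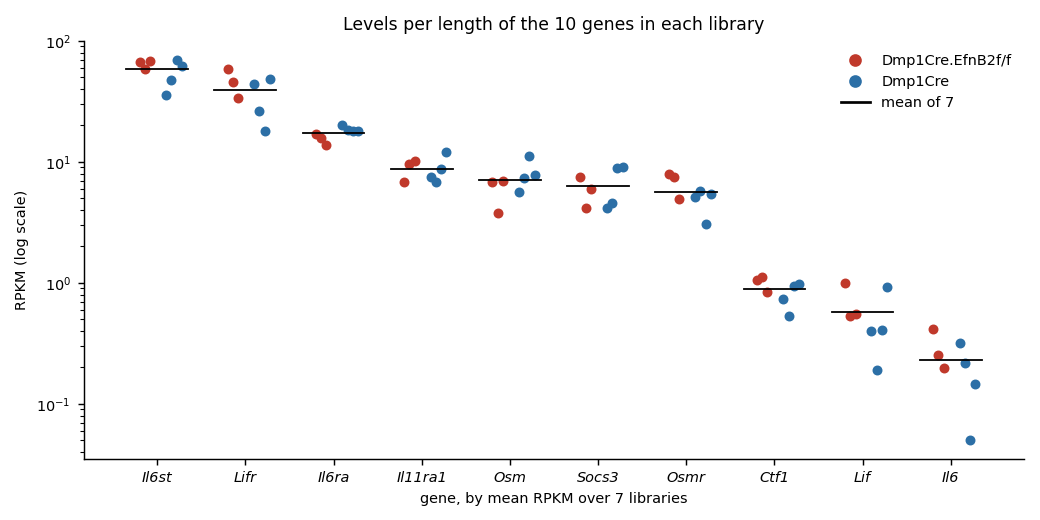
Level of each gene in RPKM on a log axis, genes ordered by their mean over 7 libraries. Each point is a library, red for the label Dmp1Cre.EfnB2f/f and blue for Dmp1Cre, and the line is the mean. Points run from 69.9 RPKM for Il6st to 0.051 RPKM for Il6, and the neighbours Osm, Socs3 and Osmr overlap while the step from Osmr to Ctf1 leaves a gap.

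The order was tested between neighbours by a two-sided exact sign-flip permutation test of the log2 difference over the 7 libraries, with adjustment over 9 pairs. Lifr exceeded Il6ra, Il6ra exceeded Il11ra1, Osmr exceeded Ctf1 and Ctf1 exceeded Lif in 7 of 7 libraries each (permutation p = 0.0156, the smallest possible, adjusted p = 0.0352). The mean log2 differences of these pairs were 1.09, 1.00, 2.63 and 0.78. The order of Il6st over Lifr held in 6 of 7 libraries and did not pass (exact permutation, adjusted p = 0.0703). In control 2, Lifr was the higher of the pair, at 44.3 RPKM against 35.7 RPKM for Il6st. Il11ra1, Osm, Socs3 and Osmr formed a run of neighbours that could not be ordered (exact permutation, adjusted p = 0.201 to 0.688). Lif and Il6 could not be ordered either (exact permutation, adjusted p = 0.0703), with Il6 above Lif in control 3.

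Between the genotypes, no gene of the set passed the test. Il6 had at most 8 counts in a library and did not reach the minimum for testing, 0.65 CPM (counts relative to library size) in 3 or more libraries, so 9 genes were tested, each with at least 12 counts in every library. By edgeR's quasi-likelihood test, 0 of the 9 had an adjusted p under 0.05, as did 0.00% of the 15085 genes tested. At an unadjusted p under 0.05 there were also 0 of 9, against 9.67% of all genes. The log2 fold change was above 0 in 6 of the 9, against 51.3% of all genes, and its median was 0.27 against 0.01 over all genes. The libraries of the genotypes did not overlap for 1 of the 9, Il6ra, against 11.3% of all genes (5.04% higher and 6.30% lower in the Dmp1Cre.EfnB2f/f-labelled libraries). With the replicate number as a block, edgeR called 0 of the 9, against 0.00663% of all genes. DESeq2 also called 0 of the 9, against 0.477% of all genes. The pipeline of the study, limma with sample weights but here without the day of collection as a block, called 3 of the 9 against 14.9% of all genes. These were Il6st, Osmr and Il6ra, and the weights in that fit ranged from 0.168 for control 4 to 7.29 for replicate 2 of Dmp1Cre.EfnB2f/f.

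**Figure D2:**
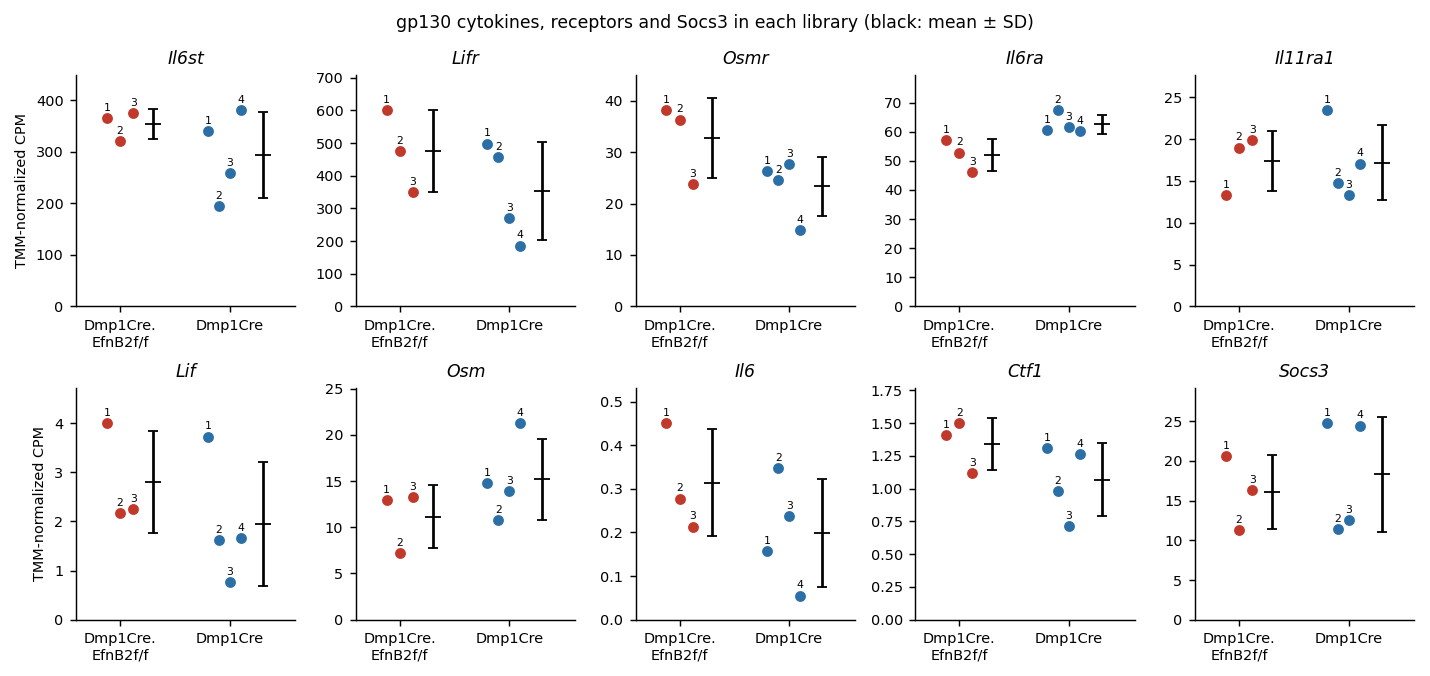
TMM-normalized CPM of each of the 10 genes, with a separate axis for each gene. Numbered points are libraries, red for the label Dmp1Cre.EfnB2f/f and blue for Dmp1Cre, and black bars give the mean and SD. The panel of Il6ra is the one in which the points of the genotypes do not overlap, at 46.2 to 57.1 CPM against 60.2 to 67.5 CPM.

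The shared subunit Il6st (chromosome 13 from 112464070 to 112506860 on GRCm38.p6) had 6480, 5762 and 7024 counts in the Dmp1Cre.EfnB2f/f-labelled libraries and 6464, 3374, 4348 and 6918 in controls 1 to 4. After TMM normalization these were 365, 320 and 375 CPM against 339, 195, 258 and 381 CPM. The controls spanned a wider range than the other group, and all 3 Dmp1Cre.EfnB2f/f-labelled libraries lay within it. The mean was 353 ± 29.2 CPM (SD, n = 3) against 293 ± 83.1 CPM (SD, n = 4). This gave a log2 fold change of 0.27 (SE 0.25, edgeR adjusted p = 0.642). It was 0.12 without control 2, the lowest library, 0.42 without control 4 and 0.64 without controls 1 and 4 (edgeR adjusted p = 0.146). The limma pipeline gave 0.69 (limma adjusted p = 0.0170).

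Lifr (chromosome 15 from 7090610 to 7197489), the receptor for Lif and Ctf1, had 10691, 8560 and 6565 counts in the Dmp1Cre.EfnB2f/f-labelled libraries. The controls had 9510, 7933, 4566 and 3383 counts. In CPM these were 602, 475 and 350 against 499, 458, 271 and 186, the widest spread of the 4 receptors besides Il6st, with a 3.23-fold range. Replicate 1 of Dmp1Cre.EfnB2f/f was above every control and the other 2 lay among them. Here the log2 fold change was 0.43 (SE 0.36, edgeR adjusted p = 0.617), and it was 0.21 without control 4, the lowest library, and 0.22 without replicate 1, the highest.

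Osmr (chromosome 15 from 6813568 to 6874968), the receptor for oncostatin M, lies 215641 bases from Lifr. Counts of 679, 654 and 446 in the Dmp1Cre.EfnB2f/f-labelled libraries stood beside 502, 425, 466 and 270 in the controls. These were 38.2, 36.3 and 23.8 CPM against 26.3, 24.6, 27.6 and 14.9 CPM. Replicates 1 and 2, which came from the same parent cross, were above every control, and replicate 3 lay within the control range. For Osmr the log2 fold change was 0.49 (SE 0.26, edgeR unadjusted p = 0.0903, adjusted p = 0.517), and 0.32 without control 4. Only 1 parent cross supplied both genotypes, and in it replicate 3 was below control 3 by 0.21 on the log2 scale. The direction therefore turned with parent cross as a block (log2 fold change -0.21).

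Il6ra (chromosome 3 from 89869324 to 89913196), the IL-6 receptor, was the gene with the steadiest level across libraries. It had 1015, 951 and 865 counts in the Dmp1Cre.EfnB2f/f-labelled libraries and 1154, 1168, 1039 and 1094 in the controls. In CPM the values were 57.1, 52.8 and 46.2 against 60.5, 67.5, 61.6 and 60.2, so all 3 of the former lay below all 4 controls. The means were 52.0 ± 5.52 CPM (SD, n = 3) and 62.5 ± 3.39 CPM (SD, n = 4). The two-sided exact permutation test over 35 splits gave p = 0.0286, the smallest it can give, with no adjustment over the genes of the set. The same permutation test gave p = 0.2 to 0.914 for the other genes of the set. Of all genes, 6.30% were lower without overlap, as was Il6ra. By edgeR the log2 fold change was -0.26 (SE 0.15, edgeR unadjusted p = 0.108, adjusted p = 0.520) and stayed between -0.42 and -0.18 under all 17 alternatives. Within the shared cross, replicate 3 was below control 3 by a log2 difference of -0.42. An lncRNA, Gm46811, overlaps Il6ra, and the strand setting of the counting was not given in the sources used here, so reads of the overlap cannot be assigned to either.

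Markers of marrow cells are given beside Il6ra, although 0 of them passed edgeR's adjusted threshold. At an unadjusted p under 0.05 there were 1 of 9 neutrophil and 1 of 7 monocyte and macrophage markers. There were also 1 of 7 B lineage and 0 of 6 T and NK markers, against 9.67% of all genes. The summed level of 9 neutrophil markers was 12313 to 15462 CPM in the Dmp1Cre.EfnB2f/f-labelled libraries and 17704 to 20371 CPM in the controls, and all 9 had a log2 fold change below 0. The summed level of 7 monocyte and macrophage markers was 791 to 804 CPM against 885 to 1142 CPM, with 6 of the 7 below 0. Taken singly, most markers of both lists overlapped, such as S100a9 (3442 to 4526 against 3239 to 5541 CPM) and Csf1r (185 to 193 against 169 to 361 CPM). Ngp, Ltf, S100a8 and Ly6c2 were lower without overlap, as were 6.30% of all genes. The sums of the lymphocyte lists overlapped between the groups. B lineage markers summed to 321 to 371 CPM against 240 to 352 CPM, with 6 of 7 above 0. T and NK markers summed to 71.3 to 81.6 CPM against 72.2 to 99.6 CPM, with 5 of 6 below 0. None of these markers was at 0 in a library. Fewer cells of a type and less RNA per cell cannot be told apart in whole bone, and the part of these cells in the Il6ra values was not tested.

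The IL-11 receptor gene Il11ra1 (chromosome 4 from 41760443 to 41769473) had 236, 342 and 373 counts in the Dmp1Cre.EfnB2f/f-labelled libraries and 448, 256, 225 and 310 in the controls. The levels were 13.3, 19.0 and 19.9 CPM against 23.5, 14.8, 13.3 and 17.1 CPM, and the groups overlapped. The fitted change was a log2 of 0.02 (SE 0.24, edgeR adjusted p = 0.978). Its sign depended on the scaling, at -0.0042 with DESeq2 size factors. The gene overlaps Ccl27a and has a near-identical copy, Il11ra2, which had at most 1 count in each of the 7 libraries, so its counts are uncertain.

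Among the cytokines, Osm (chromosome 11 from 4236785 to 4241026) was the most abundant. It had 230, 130 and 249 counts in the Dmp1Cre.EfnB2f/f-labelled libraries and 281, 186, 235 and 386 in the controls. These were 12.9, 7.22 and 13.3 CPM against 14.7, 10.7, 13.9 and 21.3 CPM. Replicate 2 was below every control and the other 2 lay within the control range. For Osm the log2 fold change was -0.44 (SE 0.30, edgeR adjusted p = 0.555), which came to -0.24 without control 4 and to -0.20 when replicate 2 of Dmp1Cre.EfnB2f/f was left out.

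Lif (chromosome 11 from 4257568 to 4272514) lies 16541 bases from Osm and had lower counts. There were 71, 39 and 42 counts in the Dmp1Cre.EfnB2f/f-labelled libraries and 71, 28, 13 and 30 in the controls. As normalized levels these were 4.00, 2.17 and 2.24 CPM, with 3.72, 1.62, 0.771 and 1.65 CPM in controls 1 to 4, and the groups overlapped. Replicate 1 of Dmp1Cre.EfnB2f/f and control 1 were the high libraries, and control 3 was the lowest, with a 95% exact Poisson interval of 0.410 to 1.32 CPM that covers counting error only. For Lif it was 0.52 on the log2 scale (SE 0.49, edgeR adjusted p = 0.647). Leaving out control 1 raised it to 1.05, and leaving out control 3 or replicate 1 of Dmp1Cre.EfnB2f/f gave 0.26 and 0.18.

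Ctf1 (chromosome 7 from 127712676 to 127718188), which encodes cardiotrophin-1, had 25, 27 and 21 counts in the Dmp1Cre.EfnB2f/f-labelled libraries and 25, 17, 12 and 23 in the controls. Its mean of 1.34 CPM (SD 0.197, n = 3) compared with 1.07 CPM (SD 0.279, n = 4) in the controls, and replicate 3 of Dmp1Cre.EfnB2f/f lay within the control range of 0.712 to 1.31 CPM. Its log2 fold change was 0.32 (SE 0.31, edgeR unadjusted p = 0.321, not past the threshold after adjustment), which came to 0.17 without control 3 and 0.66 without controls 1 and 4. Its related neighbour Ctf2, 771 bases away, was under the minimum for testing.

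Il6 (chromosome 5 from 30013114 to 30019975) was close to the limit of detection. It had 8, 5 and 4 counts in the Dmp1Cre.EfnB2f/f-labelled libraries and 3, 6, 4 and 1 in the controls. The counts were 17 in all in 3 libraries against 14 in 4, and without the filter on low counts the log2 fold change was 0.64 (SE 0.60, edgeR unadjusted p = 0.310, adjusted p = 0.664). The exact 95% Poisson intervals reached from 0.194 to 0.887 CPM in the highest library and from 0.0014 to 0.307 CPM in the lowest. An lncRNA, A230098N10Rik, overlaps the gene.

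Socs3 (chromosome 11 from 117966079 to 117970336), the STAT3-induced inhibitor whose STAT match is printed above, had 367, 204 and 305 counts in the Dmp1Cre.EfnB2f/f-labelled libraries and 472, 198, 212 and 444 in the controls. In CPM the values were 20.7, 11.3 and 16.3 against 24.8, 11.4, 12.6 and 24.4. The controls fell into a high pair, controls 1 and 4, and a low pair, controls 2 and 3, with the other libraries spread between and just below them. The log2 fold change was -0.19 (SE 0.34, edgeR adjusted p = 0.808) and turned to 0.43 without controls 1 and 4.

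**Figure D3:**
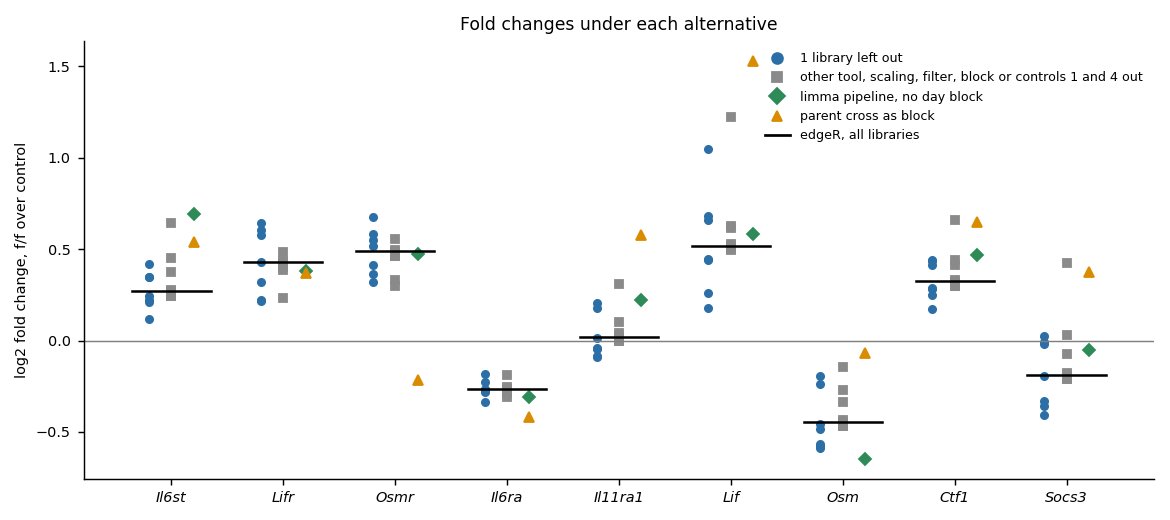
Log2 fold change of each tested gene, Dmp1Cre.EfnB2f/f over Dmp1Cre, by edgeR on all libraries (black line) and under the alternatives (points). Il6ra stays below 0, from -0.42 to -0.18, while Osmr, Il11ra1 and Socs3 have points on both sides of 0.

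The balance between receptors that pair with gp130 was compared as ratios of RPKM within each library. Lifr stood at 0.871, 0.784 and 0.493 of the Il6st level in the Dmp1Cre.EfnB2f/f-labelled libraries and at 0.776, 1.24, 0.554 and 0.258 in the controls. The highest and the lowest ratio were both in controls. Osmr ranged from 0.0440 to 0.142 of Il6st and from 0.113 to 0.218 of Lifr. Il6ra was 0.255, 0.269 and 0.201 of Il6st against 0.291, 0.565, 0.390 and 0.258, a log2 difference of -0.58 between the groups (exact permutation p = 0.171, adjusted over 6 ratios p = 0.514) that was -0.36 without control 2. Socs3 was 0.113, 0.0707 and 0.0867 of Il6st against 0.146, 0.117, 0.0973 and 0.128, a log2 difference of -0.45 (exact permutation p = 0.114, adjusted p = 0.514) that was -0.29 without replicate 2 of Dmp1Cre.EfnB2f/f. None of the 6 ratios passed the threshold.

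The rest of the pathway was taken from 4 lists. Of 12 other gp130 cytokines and receptors, 7 had enough counts to be tested. Il11, Cntf, Ctf2, Il31 and Il11ra2 did not. Their median log2 fold change was -0.25, and 0 of the 7 passed edgeR's adjusted threshold. At an unadjusted p under 0.05, 1 was higher and 1 was lower, where 4.63% of all genes were higher and 5.03% lower. The lowest unadjusted p belonged to Ebi3, a subunit shared by the cytokines IL-27 and IL-35. It had 6.92, 7.89 and 8.33 CPM in the Dmp1Cre.EfnB2f/f-labelled libraries and 14.5, 9.76, 11.8 and 16.7 CPM in the controls, with no overlap. Of all genes, 6.30% were lower without overlap, as was Ebi3. The log2 fold change was -0.77 (SE 0.23, edgeR unadjusted p = 0.0080, adjusted p = 0.510), which was -0.48 without controls 1 and 4, and Ebi3 shares its locus with Zfp119b and Gm16712. Cntfr, the ligand-binding receptor for ciliary neurotrophic factor, had 4.00, 5.72 and 5.23 CPM against 4.25, 1.62, 2.79 and 1.87 CPM. Control 1 lay among the Dmp1Cre.EfnB2f/f-labelled libraries, and the log2 fold change was 0.92 (SE 0.35, edgeR unadjusted p = 0.029, adjusted p = 0.510).

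The 10 JAK, STAT and adaptor genes were all tested, with a median log2 fold change of 0.03, 6 above 0 and 0 past the adjusted threshold of edgeR. For 6.30% of all genes the Dmp1Cre.EfnB2f/f-labelled libraries lay below all controls without overlap. This was so for the kinase gene Tyk2, at 71.8 to 83.8 CPM against 87.1 to 130 CPM (edgeR unadjusted p = 0.0532). Its log2 fold change of -0.41 was -0.19 without controls 1 and 4. Stat3, the main transcription factor downstream of gp130, had 162, 185 and 189 CPM against 255, 179, 176 and 251 CPM, with overlapping groups (log2 fold change -0.27, SE 0.20, edgeR adjusted p = 0.580). Its direction turned without controls 1 and 4 (0.013), by the limma pipeline (0.052) and with parent cross as a block (0.11). Stat3 was added to the genes named after its values had been seen.

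Of the 8 negative regulators, 3 had a log2 fold change above 0 and 5 below, with a median of -0.14, and 0 passed the adjusted threshold of edgeR. Under either block (replicate or parent cross), 5 were above 0 and 3 below. At an unadjusted p under 0.05, 1 was higher and 1 was lower, against 4.63% and 5.03% of all genes. The former was Socs2, an inhibitor best known for restraining growth hormone signals, at 12.6, 10.4 and 11.4 CPM in the Dmp1Cre.EfnB2f/f-labelled libraries and 8.03, 7.86, 6.46 and 7.16 CPM in the controls. All 3 of the former were above all 4 controls (two-sided exact permutation p = 0.0286, the smallest possible), as was so for 5.04% of all genes. For Socs2 the log2 fold change was 0.64 (SE 0.18, edgeR unadjusted p = 0.0060, adjusted p = 0.510), and the lncRNA Gm33230 overlaps the gene. Socs1, an inhibitor of JAK kinases, had 3.55, 2.72 and 3.84 CPM against 8.50, 4.04, 3.50 and 7.98 CPM, with the high values in controls 1 and 4 (log2 fold change -0.83, SE 0.36, edgeR adjusted p = 0.511). Its log2 fold change was -0.16 without those controls and turned to 0.14 with parent cross as a block. Ptpn1, a phosphatase gene named after its values had been seen, was the other gene of the list whose groups did not overlap. It stood at 112 to 123 CPM against 126 to 190 CPM. The list thus had 2 of 8 without overlap, against 11.3% of all genes, and 6.30% of all genes were lower without overlap. For Ptpn1 the log2 fold change was -0.39 (SE 0.19, edgeR unadjusted p = 0.0674), and -0.13 without controls 1 and 4.

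The 14 STAT3 response genes included 13 with enough counts, of which 11 had a log2 fold change below 0 and 2 above, with a median of -0.30. That count was 8 below and 5 above without controls 1 and 4 and by the limma pipeline, and 7 below and 6 above with parent cross as a block. By edgeR, 0 passed the adjusted threshold, and at an unadjusted p under 0.05, 2 were lower and 0 higher, against 5.03% and 4.63% of all genes. Lcn2, the iron-binding lipocalin of neutrophil granules, had 728, 881 and 867 CPM in the Dmp1Cre.EfnB2f/f-labelled libraries and 1354, 1191, 1013 and 1291 CPM in the controls. The groups did not overlap, and 6.30% of all genes were lower in this way. The log2 fold change of Lcn2 was -0.55 (SE 0.22, edgeR adjusted p = 0.510). With parent cross as a block it was -0.22. Lcn2 is also a neutrophil product. The neutrophil marker sums given with Il6ra were likewise lower in every Dmp1Cre.EfnB2f/f-labelled library than in every control. Among the controls the order differed, with Lcn2 highest in control 1 and the marker sum highest in control 4. The part of neutrophils in the Lcn2 values was not tested. Cebpb, a transcription factor of the acute phase response, had 35.6, 30.8 and 25.6 CPM against 66.1, 42.8, 34.0 and 40.5 CPM (log2 fold change -0.58, SE 0.25, edgeR adjusted p = 0.510), and replicate 1 of Dmp1Cre.EfnB2f/f lay above control 3. Without control 1 the log2 fold change of Cebpb was -0.35. The limma pipeline called 7 genes over the 4 lists, Cntfr, Stat5b and Socs2 among the higher ones and Ebi3, Il27 and Myc among the lower ones, where it called 7.52% of all genes higher and 7.41% lower.

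**Figure D4:**
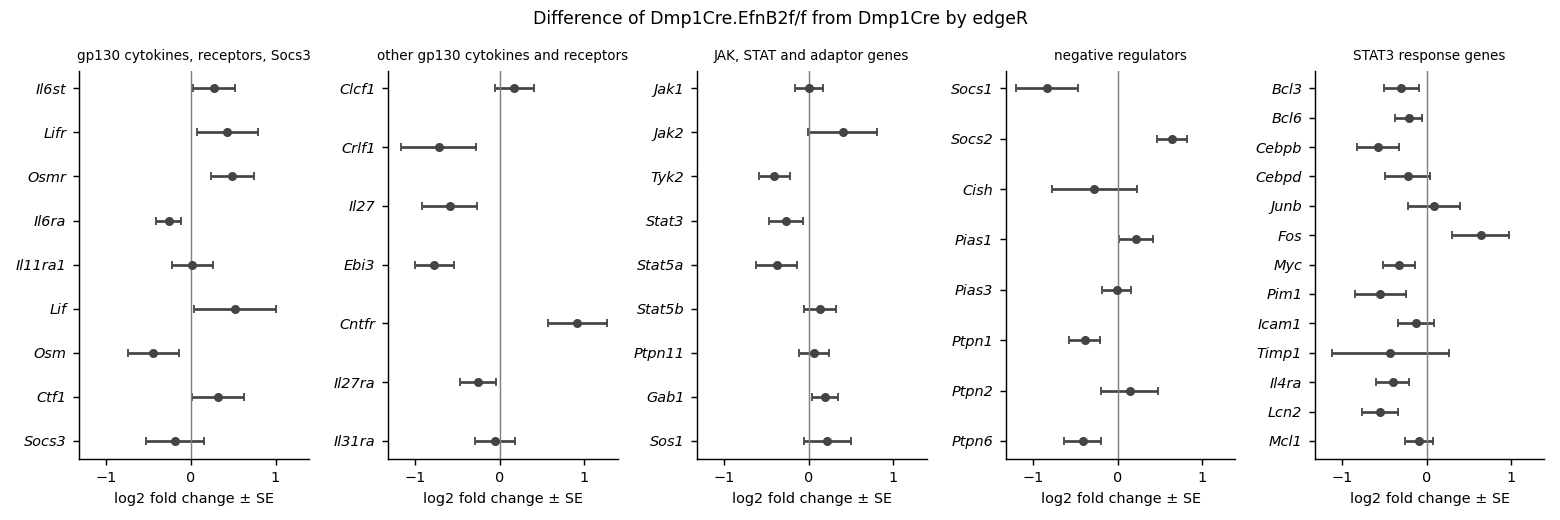
Log2 fold change with its SE by edgeR, Dmp1Cre.EfnB2f/f over Dmp1Cre, for the 9 tested genes of the set and tested genes of the 4 pathway lists. The points lie on both sides of 0 in every panel, from -0.44 to 0.52 for the set, and 11 of the 13 STAT3 response genes lie below 0, a count that was 8 without controls 1 and 4.

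The genes of the set differed in which libraries were high and low. To describe this, the log2 CPM of each of the 9 tested genes was centred on its own mean over the 7 libraries and compared with that of every other tested gene. Likeness is given as the root-mean-square difference over the 7 libraries, where a smaller value is a closer match but genes that vary little give small values. All of these libraries enter each match, so depth and cell content are shared by the genes compared.

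Near matches of Lifr included Bend5 and Pdgfd, a ligand of the platelet-derived growth factor family. Pdgfd stood at 20.4, 16.1 and 12.3 CPM in the Dmp1Cre.EfnB2f/f-labelled libraries and at 13.8, 14.4, 9.66 and 6.66 CPM in the controls, with the lowest value in control 4 as for Lifr. Il6st was nearest to Bcl7a, a chromatin remodelling subunit, and to Cdh5, the endothelial cadherin, both at 0.103, with Tspan7 after them. Cdh5 had 75.5, 64.1 and 67.7 CPM against 71.1, 44.6, 49.5 and 81.8 CPM, lowest in control 2 and highest in control 4 as was Il6st. Pecam1 and Kdr were also lowest in control 2, but no other endothelial marker was highest in control 4. Emcn and Flt1 were lowest in control 4, at 10.1 and 35.6 CPM. The summed level of 6 endothelial markers was 432 to 524 CPM in the Dmp1Cre.EfnB2f/f-labelled libraries and 332 to 417 CPM in the controls. All 6 had a log2 fold change above 0, against 51.3% of all genes. The part of endothelial cells in the Il6st values was not tested.

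Lif was matched most closely by Mepe, which encodes a matrix protein of osteocytes, with a difference of 0.191 where the spread of Lif itself was 0.700. Mepe stood at 93.9, 37.7, 20.2 and 29.6 CPM in controls 1 to 4, and of the other group replicate 1 had 80.6 CPM and replicate 3 had 41.2 CPM. The same libraries were high and low as for Lif, namely replicate 1 and control 1 at the top and control 3 at the bottom. Fam78b and Arsj were next. Ctf1 was nearest to Svep1 (0.091), a gene of the cell matrix, then to Fam110b and to Spon1, another matrix gene.

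Osmr was nearest to the long noncoding RNA Firre (0.086), then Spata6 and Reps2. Il6ra was nearest to the nucleoside transporter gene Slc28a2 (0.064), where its own spread about its mean was only 0.164 on the same scale, followed by 9330020H09Rik and Igf1r, the receptor for insulin-like growth factor 1. Igf1r had 217, 215 and 191 CPM in the Dmp1Cre.EfnB2f/f-labelled libraries and 232, 241, 220 and 222 CPM in the controls. Il11ra1 was nearest to Serf1, Tmem200b and Ggcx. Osm was nearest to Zfp385a, Zfp446 and Kcng2, and Socs3 to Wdr38, Tmem132a and Dgat2, an enzyme of triglyceride synthesis. No gene of the set was among the 3 nearest of another.

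**Figure D5:**
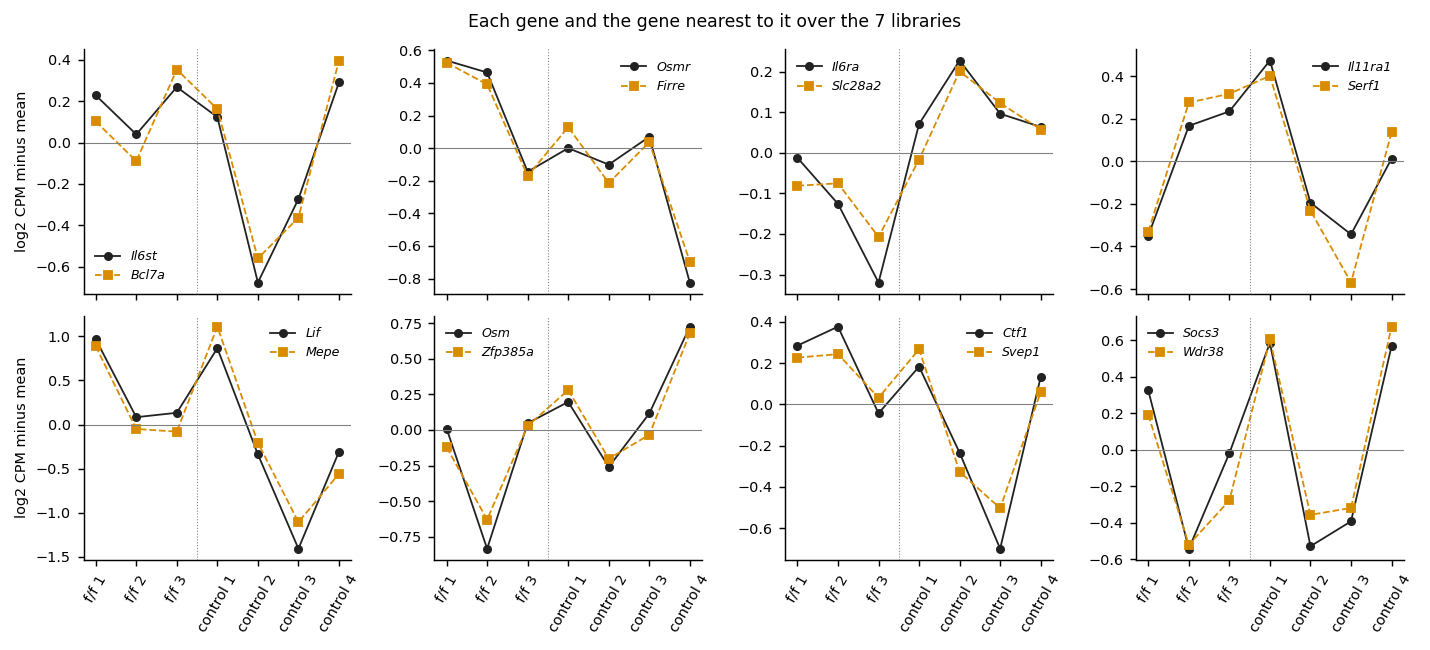
Log2 CPM minus its mean over the 7 libraries for 8 of the tested genes (black) and the nearest gene of each (orange), one panel per gene, with libraries labelled f/f for Dmp1Cre.EfnB2f/f and the lines only joining the points of a gene. Il6st and Bcl7a are lowest in control 2, Lif and Mepe in control 3, and Osmr and Firre in control 4.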

How the data were processed

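RNA from flushed femora was sequenced in 3 libraries labelled Dmp1Cre.EfnB2f/f and 4 labelled Dmp1Cre. The authors mapped 100-base paired-end reads to mm10 with Rsubread and deposited raw counts per gene from featureCounts on its built-in annotation. The submitters' processing notes also name bcl2fastq 2.17.1.14. The strand setting is not given in the sources used here. The series table and the single files held equal counts in all 7 libraries, and 26 symbols that differed were read from the single files.

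A minimum of 0.65 CPM in 3 or more libraries left 16302 genes, and 15085 were tested after immunoglobulin segments, predicted genes, pseudogenes and the like had been left out. edgeR 4.0.16 (TMM, robust quasi-likelihood) in R 4.3.3 gave log2 fold changes, with Benjamini-Hochberg adjustment at 0.05. The SE was the log2 fold change over the root of the F statistic. RPKM used the gene length in the files, with 0.5 counts added before log2, and log2 CPM for likeness had a prior count of 2. DESeq2 1.42.0 and a limma 3.58.1 pipeline after the study's methods were run beside it. The day of collection, a block in the study, is not in the labels used here, so that fit was not run. The tests were tried on simulated data. Gene names and positions came from RefSeq (GRCm38.p6). The genes named were the 10 of the set, Efnb2, in each pathway list the genes past the threshold and the 2 with the lowest unadjusted p, and the 3 nearest genes of each tested gene. The set, lists and rule were chosen with earlier results of these data known. Some genes that this rule names are not reported here.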

Additional observations from a re-analysis of the deposited data

How the results depend on the processing

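The number of genes past the adjusted threshold was 0 of 15085 by edgeR (lowest adjusted p = 0.228), 72 by DESeq2 (24 higher, 48 lower), 2252 by the limma pipeline, 0 to 2 with 1 library left out and 2 without controls 1 and 4, a setting added after seeing the data. The limma pipeline called 3 genes of the set and 7 of the pathway lists, and no other alternative called any. At an unadjusted p under 0.05, scaling by library size only gave 850 higher and 574 lower genes, against 699 and 759 by edgeR with TMM. The cause of these differences was not tested.

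Same-numbered libraries did not deviate together (correlations of their deviations -0.14, 0.063 and -0.42). So few correlations cannot decide whether the replicate numbers pair the samples. Replicate 3 of Dmp1Cre.EfnB2f/f and control 3 came from the same parent cross. With the replicate block, in which control 4 has no partner, edgeR called 1 gene, none of the set, and the log2 fold change of Socs3 was 0.031, while the log2 ratio difference was -0.22 for Lifr/Il6st, -0.16 for Osmr/Il6st and 0.064 for Osmr/Lifr. With parent cross as a block, which leaves only replicate 3 against control 3, Osmr was at -0.21 and Socs3 at 0.37. Without controls 1 and 4, Socs3 was at 0.43. Il11ra1 was at -0.0043 by DESeq2 and -0.0042 with its size factors.

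With 1 library left out, Il11ra1 ranged from -0.090 to 0.21 and Socs3 from -0.41 to 0.025, above 0 without replicate 2 of Dmp1Cre.EfnB2f/f. The ratio differences ranged from -0.22 to 0.53 for Lifr/Il6st, from -0.16 to 0.45 for Osmr/Il6st and from -0.13 to 0.18 for Osmr/Lifr, the first 2 turning without control 4. Il6st, Lifr, Il6ra, Lif, Osm and Ctf1 kept their direction under all 17 alternatives. Of the 9 neighbour pairs in the order of levels, 4 passed over 7 libraries and 3 with 2 counts added in place of 0.5. With 6 libraries or the controls alone 0 passed. The smallest sign-flip p before adjustment is then 0.0312 or 0.125, so with the controls alone no pair could pass. The order of means stayed the same except that Osmr moved above Socs3 without control 4. Depth limits Il6, Lif and Ctf1, which had at most 71 counts in a library.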
